A study of Mus musculus with 3 samples.

Results

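Vomeronasal receptor genes were taken as the 327 rows of the count table, of 39179 in all, whose symbol begins with Vmn1r (205 rows) or Vmn2r (122 rows), leaving out symbols that contain -ps. The rows carry 324 different symbols. The series sequenced RNA from immunoprecipitates of white fat of C57BL/6 mice aged 16 weeks and fasted overnight. The 3 libraries are 2 precipitated with the anti-Flag M2 monoclonal antibody (Flag-IP 1 and Flag-IP 2) and 1 with IgG (IgG-IP). All mice carried a Flag-FTO transgene, FTO being an RNA demethylase, so that no library is from an animal lacking the tag. The sources used here do not give the promoter of the transgene, whether tissue was pooled, or whether the libraries came from separate animals. The spread between the Flag-IP libraries may therefore be technical, and the single IgG-IP library has no replicate. Counts are given as triplets in the order Flag-IP 1, Flag-IP 2 and IgG-IP.

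Vomeronasal receptors detect pheromones and other chemical cues in sensory neurons of the vomeronasal organ, a blind pouch at the base of the nasal septum. Each neuron uses very few of them, and the genes are kept silent in most other tissues. V1R receptors, encoded by the Vmn1r genes, have their coding sequence in a single exon and signal through the G protein subunit encoded by Gnai2. V2R receptors, encoded by the Vmn2r genes, carry a long extracellular domain spread over several exons and signal through the subunit encoded by Gnao1. Both routes open the cation channel encoded by Trpc2. White fat is not known to hold such neurons, and the set was labelled as silent background.

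The receptor genes arose by repeated local duplication, and neighbouring copies can be nearly identical, which limits how far a count belongs to its row. Of 325 members with a transcript in the GENCODE M21 annotation, 20 had no 50-base stretch of transcript that was absent from all other annotated genes, and 15 of those rows nevertheless held counts. The median share of such private 50-base stretches was 89.6% for the Vmn1r and 83.4% for the Vmn2r genes. Among genes named below the share was 30.7% for Vmn1r139, 37.1% for Vmn2r91 and 47.6% for Vmn2r7, but 96.7% for Vmn1r69 and 93.8% for Vmn2r59. Counts of rows with a low share are less certain. The sequences shown are the first 90 coding bases of the 4 Vmn1r genes without a private stretch that had the most counts, all on chromosome 7 of GRCm38. They lie at chr7:22163946-22164035 on the minus strand (Vmn1r142) and, on the plus strand, at chr7:20771185-20771274 (Vmn1r112), chr7:20193710-20193799 (Vmn1r95) and chr7:20533837-20533926 (Vmn1r104). Capitals mark bases that differ from Vmn1r142.
Vmn1r142: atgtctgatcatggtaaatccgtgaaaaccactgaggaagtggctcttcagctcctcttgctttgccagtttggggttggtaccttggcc
Vmn1r112: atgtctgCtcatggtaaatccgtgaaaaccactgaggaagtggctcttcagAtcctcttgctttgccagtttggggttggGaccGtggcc
Vmn1r95: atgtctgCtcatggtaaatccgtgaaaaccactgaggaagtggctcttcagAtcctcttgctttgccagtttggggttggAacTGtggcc
Vmn1r104: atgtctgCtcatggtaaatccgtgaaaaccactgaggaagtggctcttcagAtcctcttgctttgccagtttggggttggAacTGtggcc

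Vmn1r112 differed from Vmn1r142 at 4 of the 90 bases, and Vmn1r95 and Vmn1r104 each at 5, with the same letters in both. Their counts were 2, 0 and 6 for Vmn1r142, 2, 0 and 5 for Vmn1r112, 4, 1 and 2 for Vmn1r95, and 4, 1 and 1 for Vmn1r104. A short read from this stretch could come from either of the last pair, and counts of these rows are uncertain in all that follows. The same holds for Vmn2r47, the only Vmn2r gene without a private stretch (8, 19 and 28 counts). It shared 72.5% of its 50-base stretches with Vmn2r30 (12, 16 and 29 counts), and their coding starts, at chr7:9841236-9841325 and chr7:7337404-7337493 on the minus strand of GRCm38, differed at 1 base, in capitals.
Vmn2r47: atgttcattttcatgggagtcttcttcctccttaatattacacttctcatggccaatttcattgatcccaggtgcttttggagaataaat
Vmn2r30: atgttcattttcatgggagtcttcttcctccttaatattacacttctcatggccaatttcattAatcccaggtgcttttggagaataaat

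The libraries held 98227791, 95824218 and 74176962 counts in all, but genes under 10000 counts held only 1273814, 1299091 and 1391578 of them, so that most genes were sampled shallowly. TMM scaling, which sets library sizes so that most genes agree between libraries, gave factors of 0.840, 0.936 and 1.27. A normalized count below is a count divided by the scaled library size and multiplied by the mean of the scaled sizes. The tissue label was set beside 10 white adipocyte markers, all of which had counts in every library. They ranged from 1932, 1631 and 196 counts for Aqp7, the glycerol channel of fat cells, down to 11, 6 and 3 for Retn, which encodes resistin. Of the 10, 2 were higher in Flag-IP (Aqp7 and Plin1), 1 was lower (Cd36) and 7 did not pass the test described below. That test called 5.58% of all tested genes higher and 5.77% lower. Adipoq, which encodes the adipocyte hormone adiponectin, had 18, 14 and 3. Counts in every library do not check the tissue label, because all 10 sensory neuron markers described below had them too. Median counts per kb of RefSeq gene length were 2.73, 1.66 and 1.18 for the adipocyte markers. For the neuron markers they were 0.823, 0.919 and 0.763, and the difference was not tested. Low counts were even more often than odd: of 35022 values from 1 to 10 in the whole table, 72.5% were even, and of 320 such values of vomeronasal receptor genes, 69.1%. The intervals below therefore take 2 counts as a single event, and they cover counting error only.

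The rows labelled silent held counts about as often as all rows of the table, and counts alone do not show that a gene was transcribed. Of the 327 rows, 74 had 0 counts in all 3 libraries, which is 22.6% against 20.8% of all rows of the table. The families differed: 72 of 205 Vmn1r rows were at 0 throughout, but 2 of 122 Vmn2r rows, Vmn2r122 and the second of the rows named Vmn2r118. Counts in all 3 libraries were found for 111 Vmn2r rows and 17 Vmn1r rows. The share of all table rows with counts in all 3 libraries is not given here. A count of 0 allows up to 3 counts in that library if each count is an event of its own, and more if 2 counts are a single event, so that such a row is not shown to be without RNA.

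Summed over the members, the libraries held 1599, 1851 and 3464 counts, with exact 95% Poisson intervals of 1490 to 1714, 1734 to 1974 and 3303 to 3631. Relative to the library totals these sums are 16.3, 19.3 and 46.7 CPM. The IgG-IP library was highest before and after scaling, and its interval did not overlap those of the Flag-IP libraries. The Vmn2r genes supplied most of the sums, with 1433, 1663 and 3138 counts, and the Vmn1r genes 166, 188 and 326. A Vmn2r row had a median of 9.5, 12 and 24 counts, while the median Vmn1r row was at 0 in each library.

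After scaling, the summed Vmn2r counts were 1543, 1647 and 2956 normalized counts, a mean log2 ratio of Flag-IP to IgG-IP of -0.89 ± 0.07 (SD, n = 2). The summed Vmn1r counts were 179, 186 and 307 normalized counts, a mean log2 ratio of -0.75 ± 0.04 (SD, n = 2). Both families were thus lower in each Flag-IP library than in the IgG-IP library, by 1.85-fold and 1.68-fold on average. With 2 libraries against 1 there are 3 arrangements, and the smallest p an exact permutation test could give is 0.333, so the sums carry no test. Dividing by library totals alone gave log2 ratios of -1.41 for Vmn2r and -1.27 for Vmn1r, but it also moved the median log2 fold change of all tested genes from 0.03 to -0.48. These ratios compare RNA recovered with anti-Flag and with IgG, and do not measure expression in the fat. In such bulk precipitates differing recovery, less RNA of a gene and fewer cells holding it cannot be told apart.

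**Figure D1:**
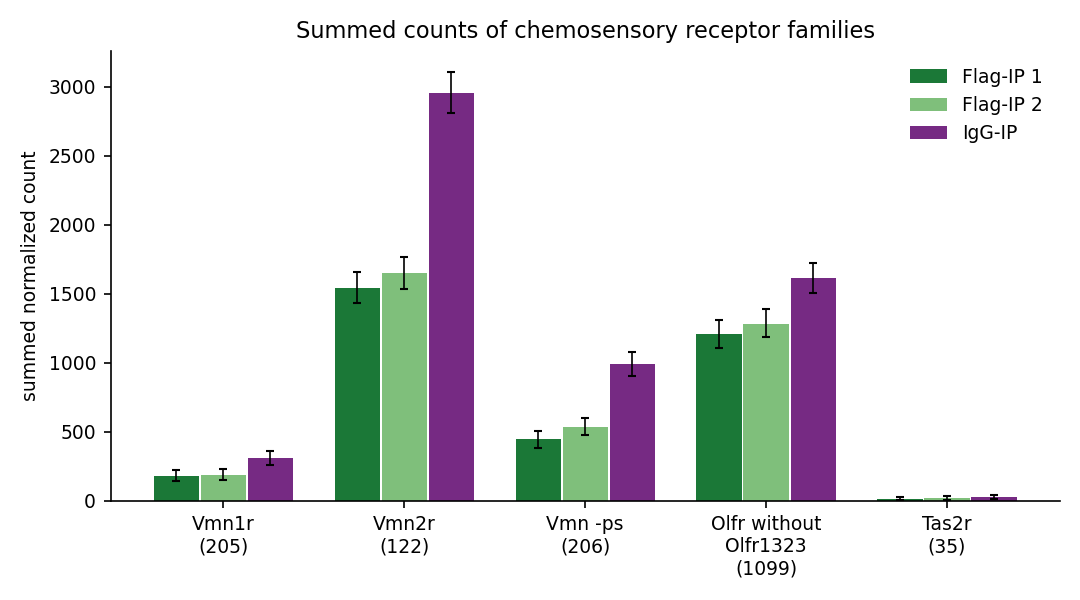
Summed normalized counts of receptor families in each library, with the number of table rows in parentheses; error bars are exact 95% Poisson intervals that take 2 counts as a single event. The Vmn2r bars stand at 1543, 1647 and 2956 (Flag-IP 1, Flag-IP 2, IgG-IP), and the Vmn1r bars at 179, 186 and 307.

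The Vmn1r counts came from few rows. The 3 highest, Vmn1r139, Vmn1r69 and Vmn1r4, made up 34.1% of all Vmn1r counts, against 10.8% for the 3 highest Vmn2r genes. Vmn1r139 (chromosome 7, 22069057 to 22097907, GRCm38) had 22, 25 and 48 counts, Vmn1r69 (chromosome 7, 10578930 to 10613659) 23, 14 and 35, and Vmn1r4 (chromosome 6, 56924015 to 56958100) 14, 16 and 35. All 3 were lower in both Flag-IP libraries than in the IgG-IP library, with log2 fold changes of -0.90 ± 0.44, -0.78 ± 0.51 and -1.09 ± 0.54 (SE), and none passed edgeR's quasi-likelihood test (adjusted p = 0.185, 0.357 and 0.188). Their GENCODE M21 spans are 28851, 34730 and 34086 bases against a family median of 6812, while their RefSeq lengths are 894, 1732 and 33695 bases against a family median of 924.

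The other 7 of the 10 Vmn1r genes with most counts went both ways at low counts. Vmn1r45 had 3, 2 and 11 counts, and Vmn1r32 and Vmn1r51 each had 0, 2 and 10. These 3 genes, all on chromosome 6, were highest in the IgG-IP library. Vmn1r41 had 6, 10 and 6 counts and Vmn1r71 4, 5 and 2, and both of these were higher in each Flag-IP library once scaled. Vmn1r3 had 2, 4 and 3 counts and Vmn1r56 4, 2 and 3, so their Flag-IP libraries lay on either side of the IgG-IP library. Of these 7, only Vmn1r45 passed the filter on low counts, with a log2 fold change of -1.95 ± 1.49 (SE, edgeR adjusted p = 0.445). In the family as a whole, 125 rows had from 1 to 9 counts in total. Of these 125, 38 (30.4%) had counts in the IgG-IP library alone and 48 (38.4%) in one or both Flag-IP libraries alone. Of all 10000 rows with such a total, 19.6% had counts in IgG-IP alone and 50.7% in Flag-IP alone.

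The Vmn2r genes with most counts were led by Vmn2r7, a member of the small Vmn2r1 to Vmn2r7 group that is known to be expressed alongside other V2R receptors. Vmn2r7 (chromosome 3, 64685044 to 64844765, GRCm38) had 98, 95 and 159 counts, which is 106, 94.1 and 150 normalized counts, and a log2 fold change of -0.59 ± 0.26 (SE, edgeR adjusted p = 0.136). Its annotated span of 159722 bases is the longest of the 10 and overlaps the noncoding gene Gm26939. The Vmn2r1 to Vmn2r7 group had 171, 173 and 309 counts in all, a mean log2 ratio of -0.71 ± 0.07 (SD, n = 2), and 0 of the 7 passed the threshold in the edgeR test. Vmn2r60 (43, 54 and 93 counts) and Vmn2r59 (36, 33 and 61), neighbours on chromosome 7, were highest in the IgG-IP library and did not pass either (adjusted p = 0.0902 and 0.252).

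The next genes in order of counts showed the same side. Vmn2r13 had 23, 34 and 45 counts, Vmn2r16 33, 22 and 42, and Vmn2r107 26, 26 and 37. None of these 3 passed, with log2 fold changes of -0.53, -0.47 and -0.38. Vmn2r56 was the exception among the 10, with 25, 47 and 46 counts: its Flag-IP 2 value of 46.5 normalized counts lay above the 43.3 of the IgG-IP library while Flag-IP 1 lay below at 26.9.

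**Figure D2:**
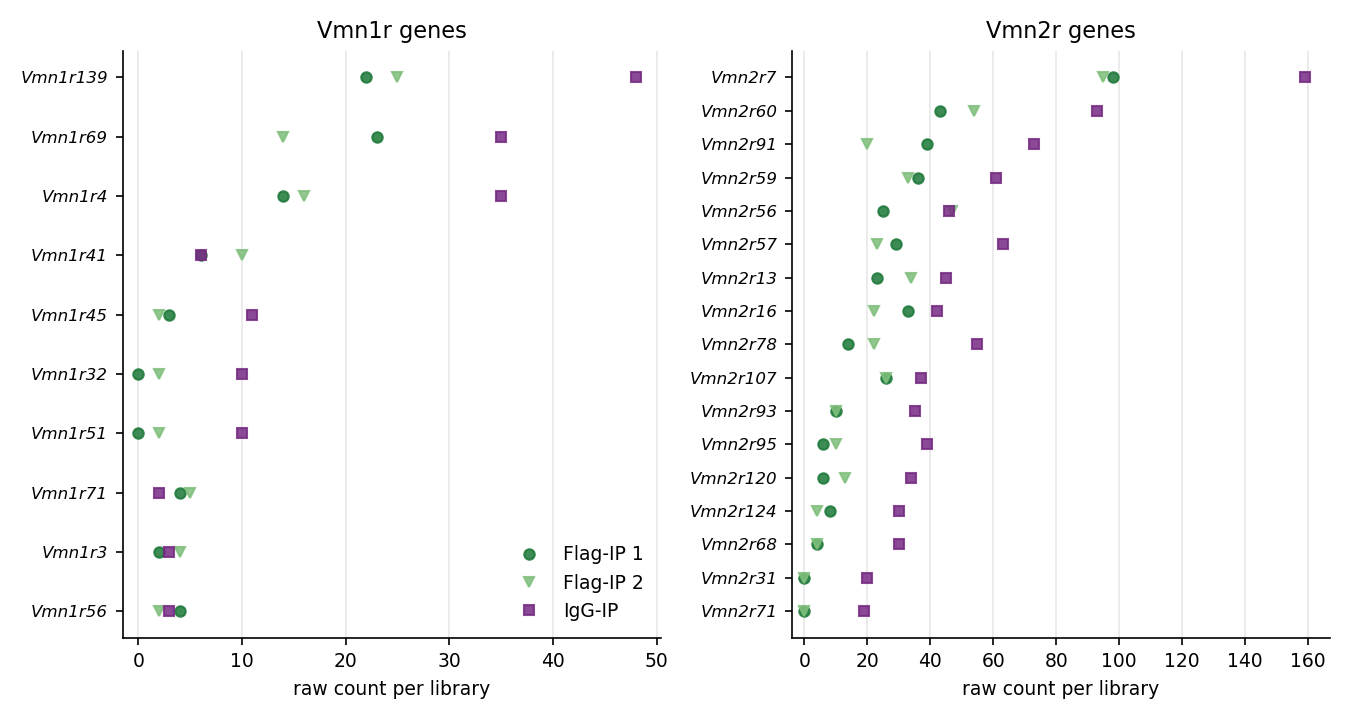
Raw counts per library (x axis) of the 10 Vmn1r genes with most counts and of the Vmn2r genes that are among the 10 with most counts or past the threshold; circles and triangles are Flag-IP 1 and 2, squares IgG-IP. The squares lie to the right of both other symbols for most genes, while Vmn1r41 and Vmn1r71 have no square to the right of their Flag-IP symbols and the symbols of Vmn2r56 for Flag-IP 2 and IgG-IP (47 and 46) nearly coincide.

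Precipitation with anti-Flag was set against IgG to find RNA that came down with the tagged FTO. For this contrast 109 of the 327 members had enough counts to be tested (105 Vmn2r and 4 Vmn1r). Of these, 10 were lower in Flag-IP, all Vmn2r, and 0 were higher by edgeR's quasi-likelihood test at an adjusted p under 0.05, where 5.77% of all 17587 tested genes were lower and 5.58% higher. At an unadjusted p under 0.05, 34 members were lower and 0 higher, against 11.8% and 12.9% of all genes tested. The filter lets a gene pass through the IgG-IP library alone, and 52 of the 109 had at least 10 counts in both Flag-IP libraries. Of the 10 genes past the threshold 4 did, and another 4 had under 10 counts in both, so that they were tested only because the IgG-IP library was high. The counts of 10 and 34 lower, and of 0 higher, are therefore only a description. DESeq2 gave no adjusted p to any of the 109 members and 3 an unadjusted p under 0.05, all lower. The share of all genes under that DESeq2 p is not given here, so these 3 cannot be set against it. The number lower was 42 with scaling to total counts, 7 with upper-quartile scaling and 19 with a likelihood ratio test. Of all 17587 genes tested, 3011, 785 and 751 were lower in these settings, in the same order.

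Of the 10 genes past the threshold, 2 had no counts in either Flag-IP library. Vmn2r31 (chromosome 7, 7378251 to 7399703) had 0, 0 and 20 counts and Vmn2r71 (chromosome 7, 85563087 to 85624680) 0, 0 and 19. Taking a floor of 3 counts per Flag-IP library, Vmn2r31 was at least 5.83-fold lower in Flag-IP, and Vmn2r71 at least 5.54-fold lower. These bounds take the single IgG-IP count as exact, and error in that count could put them lower. Both genes were tested only because the single IgG-IP library was high, so their place past the threshold adds no support to these bounds. If each event gave 2 counts, the bounds for Vmn2r31 and Vmn2r71 would be 2.92 and 2.77. Vmn2r71 overlaps Vmn2r70, which had 4, 4 and 8 counts, and Vmn2r57, below, overlaps Gm17102 and Gm20449.

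The largest fitted decreases among the rest belonged to Vmn2r68 (4, 4 and 30 counts; -2.74 ± 0.79 on the log2 scale, SE), Vmn2r124 (8, 4 and 30; -2.16 ± 0.71) and Vmn2r95 (6, 10 and 39; -2.14 ± 0.60). Both Flag-IP counts of each gene lay far under the IgG-IP count. At 4 to 10 counts, the likeness of the Flag-IP libraries to each other says little. Vmn2r68 and Vmn2r124 had under 10 counts in both Flag-IP libraries and were tested only because the IgG-IP library was high. Vmn2r120 (6, 13 and 34), Vmn2r93 (10, 10 and 35) and Vmn2r78 (14, 22 and 55) followed with log2 fold changes of -1.70, -1.66 and -1.48. Vmn2r91 (39, 20 and 73; -1.16) and Vmn2r57 (29, 23 and 63; -1.14) were the only genes among the 10 with most counts, apart from Vmn2r78, that passed. The adjusted p for Vmn2r57, Vmn2r93 and Vmn2r120 lay just under the threshold, at 0.0437, 0.0466 and 0.0464. Those 3 calls were lost with upper-quartile scaling and with scaling to genes under 10000 counts, and that of Vmn2r57 also without the filter and with the likelihood ratio test. Of the 10 genes, 5 lie on chromosome 17 and 5 on chromosome 7.

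The genes past the threshold were not alone in their direction. With a filter on the summed count of at least 10, which 117 of 122 Vmn2r rows passed, the median Vmn2r log2 fold change was -0.96, with quartiles of -1.30 and -0.58, against 0.07 over all 21043 genes with such a count. The normalized counts of both Flag-IP libraries lay under the IgG-IP library for 96 of these 117 Vmn2r genes, where 35.3% of all such genes did, and over it for 5, where 43.0% of all such genes did. Those 5 were Vmn2r10, Vmn2r27, Vmn2r42, Vmn2r44 and Vmn2r87, and none passed the threshold. The 8 Vmn1r rows with at least 10 counts are too few to describe that family.

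Summed Vmn2r counts were lower in both Flag-IP libraries on each chromosome with at least 7 of the genes. The mean log2 ratio of summed counts was -0.95 ± 0.11 (SD, n = 2) for the 51 genes on chromosome 7, -1.04 ± 0.07 for the 32 on chromosome 17, -0.73 ± 0.14 for the 11 on chromosome 5, -0.66 ± 0.02 for the 9 on chromosome 6 and -0.70 ± 0.28 for the 8 on chromosome 10. Chromosomes 7 and 17, which hold the 10 called genes, had the lowest ratios of these 5. The called genes are part of those sums, and the same chromosomes hold most of the Vmn2r rows, so this is only a description. The Vmn1r clusters were less alike: the sums were 102, 104 and 181 counts for the 101 genes on chromosome 7 and 42, 48 and 106 for the 51 on chromosome 6, but 17, 23 and 22 for the 33 on chromosome 13, where the log2 ratio was -0.02 ± 0.22.

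The count of a Vmn2r gene went with its length. Across the 122 rows, which are not independent replicates and share libraries, Spearman's rho between total count and gene length was 0.84 with RefSeq lengths (introns included) and 0.78 with GENCODE M21 spans, and 0.09 with the summed length of the exons. Across the 205 Vmn1r rows rho with RefSeq length was 0.14. Dividing summed counts by summed RefSeq length gave 0.440, 0.511 and 0.965 counts per kb for Vmn2r, and 0.497, 0.563 and 0.976 for Vmn1r. On this scale the families had nearly the same level in each library. This likeness depends on the gene model, since GENCODE M21 spans, which are longer for Vmn1r (median 6812 bases), put the Vmn1r level at 0.107, 0.121 and 0.208 counts per kb and the Vmn2r level at 0.385, 0.447 and 0.844. The annotation behind the deposited counts is not given in the sources used here.

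Other protein-coding genes of like length set the scale. Vmn2r genes of 20 to 30 kb (32 genes) had medians of 9, 13.5 and 24 counts, and the 2233 other protein-coding genes of that length 19, 21 and 20. At 30 to 50 kb the medians were 18, 21.5 and 34.5 counts for 36 Vmn2r genes and 29, 32 and 33 for 2300 others. In these length groups the Vmn2r medians were above those of other genes in the IgG-IP library and below them in both Flag-IP libraries. The 4 Vmn2r genes of 50 to 100 kb were below in every library, with medians of 25.5, 17.5 and 47.5 counts against 49, 55 and 62. The 175 Vmn1r genes under 1.2 kb had a median total over the 3 libraries of 1 count, and 1310 other protein-coding genes of that length 2 counts.

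**Figure D3:**
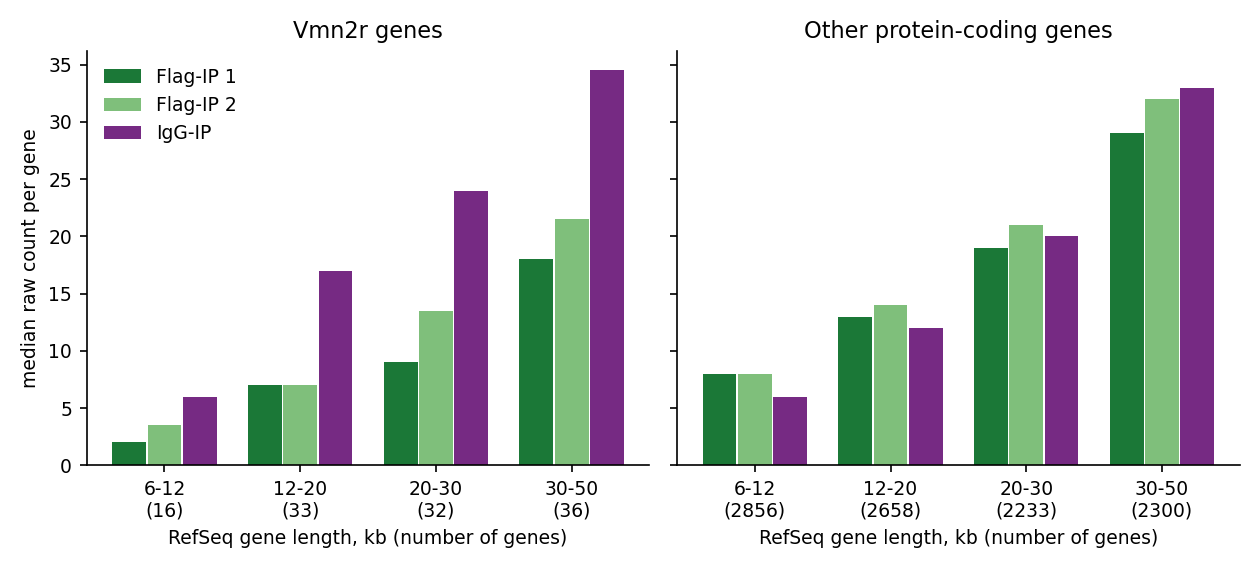
Median raw count per gene (y axis) in each library for Vmn2r genes (left) and all other protein-coding genes (right), in groups of RefSeq gene length in kb with the number of genes in parentheses. The IgG-IP bars are of similar height in both panels at 30 to 50 kb (34.5 and 33), while the Flag-IP bars of the Vmn2r genes are lower (18 and 21.5 against 29 and 32).

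Transcript GC content moved with the comparison. The 125 receptor genes with a summed count of at least 10 had a median GC of 38.4%, against 49.1% for 17259 protein-coding genes with such a count, and 112 of them fell in the lowest of 10 equal groups by GC. In that group, up to 40.6% GC, the median log2 fold change of Flag-IP over IgG-IP was -0.75 for genes other than the receptors and -0.97 for the receptors. Taking each receptor gene against the median of its own GC group, 87 lay below it and 38 above, with a median difference of -0.21. The highest GC group had a median of 0.89. Other genes of low GC thus lay on the same side as the receptor genes, and the part of GC content in the result was not tested.

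**Figure D4:**
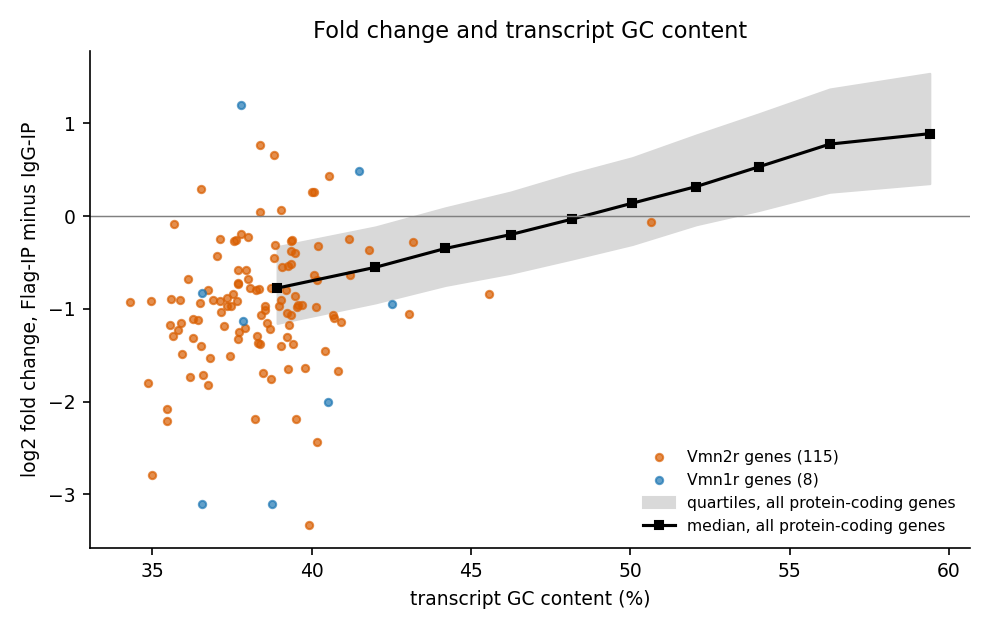
Log2 fold change of Flag-IP over IgG-IP (y axis) against transcript GC content in percent (x axis) for 115 Vmn2r and 8 Vmn1r genes with a summed count of at least 10, leaving out Vmn2r31 and Vmn2r71, which had no Flag-IP counts. The black line joins the medians of 10 equal GC groups of all protein-coding genes, placed at the median GC of each group, and the grey band their quartiles; most receptor genes lie at the left end, around and below the line.

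The rows with -ps symbols, which the nomenclature reserves for pseudogenes, were counted as well. The 206 vomeronasal rows of that kind had 412, 540 and 1048 counts, a mean log2 ratio of -1.02 ± 0.19 (SD, n = 2), and 71 of them had no counts. Other chemosensory receptor families were summed in the same way. The odorant receptors (1100 Olfr rows) had 2176, 2190 and 1796 counts, but a single row, Olfr1323, held 1056, 894 and 84 of these. Without Olfr1323 the sums were 1120, 1296 and 1712, a mean log2 ratio of -0.37 ± 0.06, on the same side as the vomeronasal receptors, whereas with it the ratio was 0.41 ± 0.08. The bitter taste receptors (35 Tas2r rows, 12, 18 and 27 counts, led by Tas2r135 with 0, 0 and 9) were too weakly counted to place. So were the trace amine receptors (15 Taar rows, 8, 21 and 9 counts, with Taar2 at 2, 2 and 3) and the sweet and umami receptors (3 Tas1r rows, 30, 18 and 17 counts, with Tas1r2 at 16, 6 and 10). The difference between these families was not tested.

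Partners of the receptors in vomeronasal neurons lay on the other side of 0 at their median. Of 28 listed signalling and accessory genes, 27 were in the table and 10 were tested. Of these 10, 1 was higher, 0 were lower and 9 did not pass edgeR's test. Over all genes tested, 5.58% were higher and 5.77% lower, and 1 call of 10 is too few to set apart from that share. The median log2 fold change of the 10 was 0.53 against 0.03 over all genes tested, with Adcy2 (-0.12) and B2m (-1.54) below 0. The higher gene was Gnao1, the G protein subunit of V2R signalling, which is also used in brain and other tissues, with 176, 215 and 98 counts (1.12 ± 0.26, SE, adjusted p = 0.000711). It overlaps 4930488L21Rik, which had 26, 46 and 58 counts. Gnai2, the V1R partner and a widely expressed gene, had 20, 30 and 17 counts, and Trpc2 had 102, 114 and 87, with neither past the threshold. Trpc2 counts are identical to those of Xntrpc, which overlaps it, and cannot be assigned to either. Gnao1, Gnai2 and Trpc2 had transcript GC contents of 56.1%, 56.7% and 55.4%, well over the 38.4% of the receptor genes.

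Genes more restricted to sensory neurons had few counts, and several of them are short. Omp, which marks mature olfactory and vomeronasal neurons, had 2, 2 and 2 counts, and Gng8, a G protein subunit of those neurons, had 6, 10 and 2. Per kb of RefSeq length Omp stood at 0.957 counts in each library, above the median of 19100 other protein-coding genes (0.756, 0.835 and 0.814). This rests on 2 counts per library, and Omp overlaps Capn5, which had 61, 44 and 34 counts. The channel subunits Cnga2 and Cnga4 had 8, 13 and 16 and 10, 8 and 2 counts, and Stoml3, a membrane protein of olfactory cilia, 14, 15 and 10. The H2-M genes, nonclassical major histocompatibility genes expressed with V2R receptors, had between 0 and 7 counts per library, and H2-M10.4 had 0 in all. Of 10 sensory neuron markers 6 were tested, and 0 were called in either direction by edgeR, against 5.58% higher and 5.77% lower over all genes. None of the 10 markers was at 0 in every library. The sum of that marker list was 567, 677 and 609 counts, most of it from Ano2 (239, 297 and 273), Gnal and Trpc2. Gnal overlaps Mppe1, which had 31, 18 and 24 counts, and Gm23512, which had 4, 0 and 0. The part of sensory neurons in the receptor counts was not tested.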

How the data were processed

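The authors deposited raw counts for each Ensembl gene in 1 column per library, and the column names give the sample numbers of the labels. CASAVA 1.7, Bowtie 0.12.2 and build mm8 are named in the submitters' processing notes. The counting program, annotation, read length, strand setting and treatment of reads with several matches were not stated in any source at hand. A second deposited table holds no member and was not used. Positions and GC come from GENCODE M21 (GRCm38, matched by Ensembl identifier for 282 members, by symbol for 44, unmatched for 1), lengths from RefSeq (GRCm38.p6) for all 327 by symbol. No position is in mm8.

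Genes were kept by filterByExpr with a minimum count of 10 and tested with edgeR 4.0.16 (R 4.3.3), TMM scaling and the quasi-likelihood test with Benjamini-Hochberg adjustment over all 17587 genes. TMM was computed on the totals of the kept genes, a choice made after full totals had been tried, with 10 receptor genes lower either way. The fit has 1 residual degree of freedom, from the Flag-IP libraries. 0 genes had finite prior degrees of freedom, so a spread shared between genes sets the p-values, and SE is the log2 fold change over the square root of F. A common dispersion of 0.0359 was estimated before the fit, but it does not by itself set these p-values. The code was tested on simulated data with changes set only in genes counted more deeply than most receptor genes, which says little of its power for them. DESeq2 1.42.0 and other scalings and filters were alternatives. Gene names in the text are the 10 members per family with most counts, all members past the threshold, Gnao1, Gnai2, Trpc2, Omp and the top row of each other family. Other names, and the sequences and length and GC groups, were chosen after values were seen. Members and lists were chosen with earlier results of these data known.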

Additional observations from a re-analysis of the deposited data

How the results depend on the processing

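The sums of all vomeronasal receptor, Vmn1r and Vmn2r counts kept a negative log2 ratio under every alternative run. Scaling to total counts gave -1.40, -1.27 and -1.41, and upper-quartile scaling -0.81, -0.68 and -0.82. The Vmn1r ratio was -0.88 with -ps rows included, and -0.99 over the 4 Vmn1r members that passed the filter. That filter can pass a row through the IgG-IP library alone, so the ratio over those members adds no support. Leaving out a Flag-IP library gave -0.92 to -0.83 for all members, -0.78 to -0.72 for Vmn1r and -0.94 to -0.84 for Vmn2r. Taking 1 row per symbol, an alternative chosen after seeing the data, moved none by more than the spread. The number of receptor genes lower was 42 with total-count scaling and 19 with the likelihood ratio test, and 7 to 11 otherwise. DESeq2 gave them no adjusted p. Over all genes the calls were 342 higher and 3011 lower with total counts, and 1130 and 751 with the likelihood ratio test. The other edgeR settings gave 785 to 1118 lower over all genes. With DESeq2 the calls were 131 higher and 145 lower, and 15684 genes had no adjusted p. A fit without either Flag-IP library has no residual degree of freedom and was not run. No paired analysis was possible because Flag-IP and IgG-IP share only replicate number 1. The counts are weak: 128 of 327 members had from 1 to 9 counts in total. Differences in such rows are uncertain, and no detection limit was worked out for them.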
